A study of Mus musculus with 2 samples.

Results

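The replication-dependent histone cluster genes encode the linker histone H1 and the core histones H2A, H2B, H3 and H4. They were taken as all genes whose symbol in the deposited gene list starts with Hist1h, Hist2h, Hist3h or Hist4h, which gave 67 of 32285 genes. By type these were 6 H1, 18 H2A, 18 H2B, 12 H3 and 13 H4 genes. By cluster, 54 lie in Hist1 on chromosome 13, 10 in Hist2 on chromosome 3, 2 in Hist3 on chromosome 11 and 1, Hist4h4, on chromosome 6. At least 1 UMI (a count of 1 captured RNA molecule) was found for each of the 67.

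The study profiled tumours grown in C57BL/6 mice from MC38, a mouse colon carcinoma line, by droplet single-cell RNA sequencing of 3′ ends. Tumour tissue of the MC38-RSPO3-OE group came from MC38 cells that overexpress RSPO3, a secreted protein that strengthens Wnt signalling. Tumour tissue of the MC38-Ctrl group came from control MC38 cells. The submitters call both tissues xenografts, although line and host are both mouse. The promoter of the RSPO3 construct, whether the lines are clones, the number and age of the mice, the tumour site and the time of growth are not stated by the labels.

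Each group had 1 library, so no test was made, no difference has a replicate check, and every interval is a 95% interval that covers counting error only. Genotype, mouse and library preparation cannot be told apart. The RSPO3-OE library held 7314 barcodes and 155615189 UMIs, and the Ctrl library 7301 barcodes and 143881763 UMIs. Filters left 6993 RSPO3-OE cells and 6895 Ctrl cells, with 18915 UMIs (RSPO3-OE) and 16627 UMIs (Ctrl) in the median cell, and 7 barcode sequences occurred in both libraries.

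Tumour cells were cells with no UMI of the leukocyte gene Ptprc and at least 1 of Hmga2, macrophages had at least 20 UMIs of C1qa, C1qb and C1qc together, and T cells at least 2 of Cd3d, Cd3e and Cd3g together. A cell with at least 3 UMIs of the proliferation genes Mki67 and Top2a together was called dividing. This gave 4202 RSPO3-OE and 4316 Ctrl tumour cells, 1181 RSPO3-OE and 1164 Ctrl macrophages, and 406 RSPO3-OE and 203 Ctrl T cells. Dividing were 52.6% of RSPO3-OE and 54.3% of Ctrl tumour cells, 17.4% of RSPO3-OE and 21.1% of Ctrl macrophages, and 23.4% of RSPO3-OE and 25.6% of Ctrl T cells. Levels are UMIs per 1000000 UMIs of the cells concerned (CPM). The 8 macrophage markers together stood at 30396 to 43227 CPM in the macrophage classes and at 59.3 to 78.0 CPM in the tumour classes. The 4 Y-linked host genes summed to at most 0.580 CPM in the tumour classes and to at least 87.9 CPM in the host classes. The 4 fibroblast markers summed to 1801 CPM (RSPO3-OE) and 1267 CPM (Ctrl) in dividing and to 6826 CPM (RSPO3-OE) and 4659 CPM (Ctrl) in non-dividing tumour cells, and their part in the tumour cell results was not tested. Rspo3 had 8665 UMIs in dividing and 3704 in non-dividing RSPO3-OE tumour cells, against 0 UMIs in every class of Ctrl cells. Of the dividing RSPO3-OE tumour cells, 72.1% had no Rspo3 UMI.

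Histone cluster genes are transcribed mainly while DNA is copied, so that new DNA is wrapped at once. Their mRNAs normally carry no poly(A) tail and end in a conserved stem-loop, which is bound by the stem-loop binding protein SLBP and cut with the help of the U7 particle and the LSM proteins. Methods that prime on poly(A), as this one does, capture histone mRNAs incompletely, and some histone genes also give polyadenylated transcripts from sites downstream of the stem-loop.

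The stem-loop is shown because it forms the end of a mature histone mRNA. A match to its consensus after the coding sequence was found in the annotated transcripts (GENCODE vM21, mm10) of 46 of 67 genes. The 3 commonest forms are given in the sense direction, with the stem in capitals and the loop in lower case.
Form of 26 genes, Hist1h2ap, Hist1h1e and Hist1h1c among them: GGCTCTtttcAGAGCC
Form of 7 genes, all H4, Hist1h4d among them: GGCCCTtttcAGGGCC
Form of 6 genes, Hist1h3c and Hist1h3e among them: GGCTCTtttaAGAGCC
A match was found in 12 of 13 H4 genes. For 21 genes, Hist1h1b and Hist1h2bc among them, the annotated transcript holds no match, which says nothing of the gene itself.

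Promoters are shown for 3 genes whose levels are described below and for the window shared by Hist1h2bg and Hist1h2ae. RefSeq promoter sequences (GRCm38.p6, 250 bases before to 50 after the start) matched 62 of 67 genes, and 4 motifs were searched on both strands. CCAAT was present in 85.5% of the 62, against 37.4% of all 32851 promoters. All matched H1, H2A, H2B and H3 promoters held it, but 3 of 12 H4 promoters did. TATAAA was in 56.5%, against 13.6% of all promoters. The octamer ATTTGCAT, bound by POU2F1, was in 13 of 62, against 1.74% of all promoters, and lay in H2A and H2B promoters and in no H1, H3 or H4 promoter. The H1 box AAACACAA was in 4 of 6 H1 promoters and in 1.93% of all promoters. In the sequences, capitals mark these motifs on either strand, and none overlaps another.
Hist1h1e, linker histone, minus strand of chr13:23622509-23622808:
Hist1h1e: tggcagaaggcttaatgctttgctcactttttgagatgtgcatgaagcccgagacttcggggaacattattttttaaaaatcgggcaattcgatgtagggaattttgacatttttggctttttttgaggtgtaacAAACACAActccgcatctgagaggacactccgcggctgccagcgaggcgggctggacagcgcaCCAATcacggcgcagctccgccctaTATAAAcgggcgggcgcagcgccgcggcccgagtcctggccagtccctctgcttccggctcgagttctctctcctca
Hist1h1c, linker histone, plus strand of chr13:23738557-23738856:
Hist1h1c: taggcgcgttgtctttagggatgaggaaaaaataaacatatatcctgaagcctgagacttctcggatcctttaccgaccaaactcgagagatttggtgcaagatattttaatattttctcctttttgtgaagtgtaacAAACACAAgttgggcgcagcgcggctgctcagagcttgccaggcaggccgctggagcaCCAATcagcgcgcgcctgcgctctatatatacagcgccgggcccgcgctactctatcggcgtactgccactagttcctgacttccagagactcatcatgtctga
Hist1h2bg, core histone, plus strand of chr13:23571150-23571449:
Hist1h2bg: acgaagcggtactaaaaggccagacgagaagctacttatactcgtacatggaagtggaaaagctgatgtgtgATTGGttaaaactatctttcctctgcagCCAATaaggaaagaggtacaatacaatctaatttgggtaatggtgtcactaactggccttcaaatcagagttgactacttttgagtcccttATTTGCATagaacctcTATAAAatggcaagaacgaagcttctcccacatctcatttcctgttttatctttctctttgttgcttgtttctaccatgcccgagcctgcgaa
Hist1h4d, core histone, plus strand of chr13:23581318-23581617:
Hist1h4d: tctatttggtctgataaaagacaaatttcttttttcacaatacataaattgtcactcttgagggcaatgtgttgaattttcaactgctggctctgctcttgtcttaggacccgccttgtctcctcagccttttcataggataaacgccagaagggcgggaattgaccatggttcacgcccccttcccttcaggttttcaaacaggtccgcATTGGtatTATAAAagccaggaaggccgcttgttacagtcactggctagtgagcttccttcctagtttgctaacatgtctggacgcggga
The Hist1h2bg window also holds the start of Hist1h2ae, which is transcribed the other way. Hist1h1e and Hist1h1c carry the same H1 box and CCAAT, 115 and 112 bases and 52 and 54 bases before the start.

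Dividing tumour cells had 4.46 times the histone level of non-dividing tumour cells in RSPO3-OE and 4.19 times in Ctrl. The 67 genes summed to 1133 CPM in dividing and 254 CPM in non-dividing RSPO3-OE tumour cells, and to 2316 CPM in dividing and 553 CPM in non-dividing Ctrl tumour cells. The log2 ratios of dividing over non-dividing cells were 2.16 (2.13 to 2.19) and 2.07 (2.04 to 2.09). Among genes with at least 50 UMIs in both states together, 50 of 54 in RSPO3-OE and 50 of 58 in Ctrl were at least 1.5-fold higher in dividing cells. Over all genes this share was 13.1% in RSPO3-OE and 13.0% in Ctrl. The rule for dividing cells used no histone gene.

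**Figure D1:**
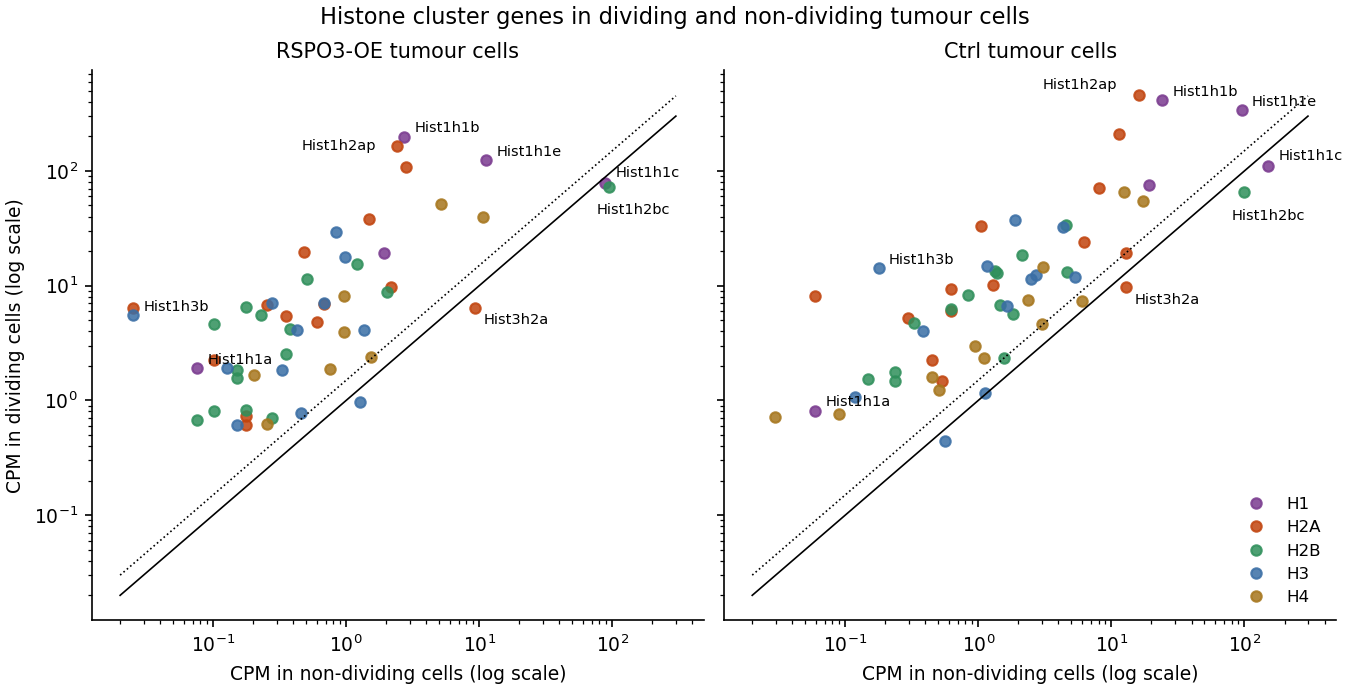
CPM of each histone cluster gene in dividing (vertical) and non-dividing (horizontal) tumour cells, both on log scales, RSPO3-OE left and Ctrl right, for genes with at least 50 UMIs in both states together and at least 1 in each, coloured by type. The solid line marks equal levels and the dotted line 1.5-fold. Hist1h1c, Hist1h2bc and Hist3h2a lie under the solid line in both libraries, as does 1 H3 gene in each.

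The linker histone genes did not all go the same way. Hist1h1b stood at 199 CPM in dividing and 2.72 CPM in non-dividing RSPO3-OE tumour cells, and at 417 CPM in dividing and 24.0 CPM in non-dividing Ctrl tumour cells. Hist1h1e stood at 125 and 11.3 CPM in dividing and non-dividing RSPO3-OE cells, and at 338 CPM (dividing) and 95.1 CPM (non-dividing) in Ctrl. Hist1h1c, in contrast, was slightly lower in dividing cells, with 77.8 CPM (dividing) and 88.3 CPM (non-dividing) in RSPO3-OE and 110 CPM (dividing) and 151 CPM (non-dividing) in Ctrl. Without Hist1h1c the H1 genes had a log2 ratio of 4.43 (4.31 to 4.54) in RSPO3-OE. In Ctrl it was 2.59 (2.55 to 2.63). With Hist1h1c the ratios were 2.02 in RSPO3-OE and 1.70 in Ctrl.

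Among the H2A genes, Hist1h2ap had the most UMIs of all members, 16.2% of histone UMIs. It stood at 166 CPM in dividing and 2.42 CPM in non-dividing RSPO3-OE tumour cells, and at 456 CPM (dividing) and 16.1 CPM (non-dividing) in Ctrl. Hist1h2ae stood at 107 CPM (dividing) and 2.80 CPM (non-dividing) in RSPO3-OE, and at 211 CPM (dividing) and 11.5 CPM (non-dividing) in Ctrl. Hist1h2bg, the H2B gene whose start lies in the same printed window, stood at 2.52 CPM (dividing) and 0.353 CPM (non-dividing) in RSPO3-OE, and at 5.68 CPM (dividing) and 1.81 CPM (non-dividing) in Ctrl. Hist3h2a, in the small cluster on chromosome 11, was lower in dividing cells, with 6.41 CPM (dividing) and 9.25 CPM (non-dividing) in RSPO3-OE and 9.71 CPM (dividing) and 12.9 CPM (non-dividing) in Ctrl. Hist1h2af had the highest ratio of all counted members in both libraries. It stood at 6.38 CPM in dividing RSPO3-OE cells against 1 UMI in all non-dividing ones, a log2 ratio of 7.98 (5.50 to 13.29).

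In H2B a gene that is not higher in dividing cells leads the sum. Hist1h2bc stood at 71.9 CPM in dividing and 95.0 CPM in non-dividing RSPO3-OE tumour cells, and at 64.8 CPM (dividing) and 100 CPM (non-dividing) in Ctrl. The H2B sum had log2 ratios of 0.44 in RSPO3-OE and 0.68 in Ctrl, which were 3.47 (3.28 to 3.67) and 2.62 (2.51 to 2.73) without Hist1h2bc. Hist1h2bj, next in UMIs, stood at 15.4 CPM (dividing) and 1.21 CPM (non-dividing) in RSPO3-OE and at 33.8 CPM (dividing) and 4.55 CPM (non-dividing) in Ctrl.

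The sums of H3 and H4, which form the tetramer at the core of the nucleosome, were higher in dividing tumour cells in both libraries. Of 12 H3 genes with enough UMIs, 1 in each library had a log2 ratio below 0. The log2 ratios of the H3 sum were 3.55 in RSPO3-OE and 2.76 in Ctrl, and those of the H4 sum 2.40 and 1.78. Hist1h3b had few UMIs outside dividing cells, with 5.52 CPM in dividing RSPO3-OE cells against 1 UMI in non-dividing ones, and 14.2 CPM against 6 UMIs in Ctrl. Hist1h4d stood at 51.1 CPM (dividing) and 5.19 CPM (non-dividing) in RSPO3-OE and at 65.8 CPM (dividing) and 12.5 CPM (non-dividing) in Ctrl. Hist1h4i stood at 39.3 CPM (dividing) and 10.6 CPM (non-dividing) in RSPO3-OE and at 54.3 CPM (dividing) and 17.4 CPM (non-dividing) in Ctrl, log2 ratios of 1.89 and 1.64.

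The annotated 3′ ends gave 3 groups of genes, which were described and not tested. Of 28 genes with a stem-loop and under 200 annotated bases past it, 20 had enough UMIs in RSPO3-OE and 23 in Ctrl, with median log2 ratios of 3.57 and 3.09. For the 18 genes with 200 or more bases past the stem-loop the medians were 1.97 in RSPO3-OE and 1.57 in Ctrl. For the 21 genes with no match in the model they were 3.66 and 3.16. The ranges overlapped, from 2.04 to 7.78, from -0.53 to 4.67 and from -0.40 to 7.98 in RSPO3-OE. Hist1h1c and Hist3h2a belong to the second group, Hist1h2ap and Hist1h3b to the first, and Hist1h2bc to the third. Of 4 genes reported to give polyadenylated transcripts in differentiated human cells, Hist1h1c, Hist1h2bc, Hist2h2be and Hist1h2ac, 2 were at least 1.5-fold higher in dividing RSPO3-OE tumour cells and 0 in dividing Ctrl tumour cells, where Hist1h2bc was at least 1.5-fold lower. Over all genes 13.1% in RSPO3-OE and 13.0% in Ctrl were higher and 10.0% in Ctrl lower, and 4 genes are too few to set against these shares.

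The dividing tumour cells of the RSPO3-OE library had 0.489 times the histone level of those of the Ctrl library. RSPO3-OE cells had 1133 CPM, with an interval of 1126 to 1141, against 2316 CPM, 2305 to 2327, in Ctrl cells, a log2 ratio of RSPO3-OE over Ctrl of -1.03 (-1.04 to -1.02). Of 58 genes with at least 50 UMIs, 46 were at least 1.5-fold lower and 2 at least 1.5-fold higher in RSPO3-OE. Over all genes 13.9% were lower and 8.90% higher by this rule. At least 2-fold lower were 27 of the 58, against 5.08% of all genes. The median log2 ratio was -0.97 over the 58 genes and -0.10 over all genes. The other 9 members had under 50 UMIs and were not counted, among them Hist1h1t, Hist1h2ba and Hist1h2aa, which are known mainly from testis.

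**Figure D2:**
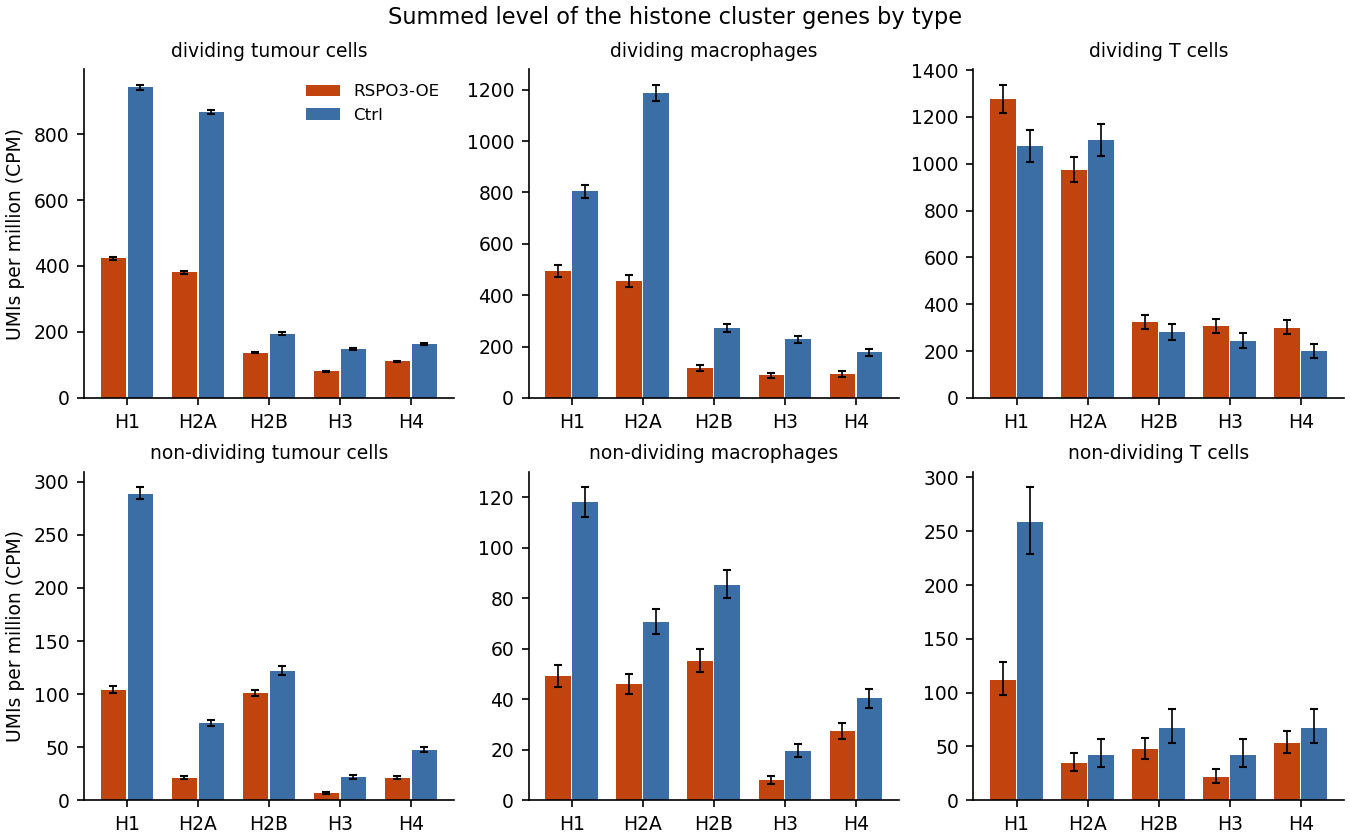
Summed CPM of the histone cluster genes by type in dividing (top) and non-dividing (bottom) cells of 3 classes, RSPO3-OE left of Ctrl, with 95% Poisson intervals and a separate vertical scale in each panel. In tumour cells and macrophages all 5 RSPO3-OE bars are below the Ctrl bars, and in all dividing T cells only the H2A bar is.

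The difference was present in all 5 types. H1 stood at 423 CPM in RSPO3-OE, against 942 CPM in Ctrl dividing tumour cells, and H2A at 381 CPM (RSPO3-OE) and 868 CPM (Ctrl), log2 ratios of -1.15 and -1.19. H3 stood at 81.0 CPM (RSPO3-OE) and 148 CPM (Ctrl), and H4 at 111 CPM (RSPO3-OE) and 164 CPM (Ctrl), log2 ratios of -0.87 and -0.56. H2B stood at 137 CPM (RSPO3-OE) and 195 CPM (Ctrl), a log2 ratio of -0.51, and without Hist1h2bc at 65.4 CPM (RSPO3-OE) and 131 CPM (Ctrl).

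Single genes differed widely in size. Among the linker histones Hist1h1d stood at 19.4 CPM in RSPO3-OE, against 75.5 CPM in Ctrl, a log2 ratio of -1.96 (-2.04 to -1.88). Hist1h1e had a log2 ratio of -1.44, Hist1h1b of -1.07 and Hist1h1c of -0.50. Hist1h1a went the other way with low counts, 1.90 CPM (144 UMIs) in RSPO3-OE and 0.816 CPM (59 UMIs) in Ctrl, a log2 ratio of 1.22 (0.77 to 1.68). The other gene at least 1.5-fold higher was Hist2h3c2, an H3 gene, at 0.779 CPM (RSPO3-OE) and 0.443 CPM (Ctrl).

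For the core histones, Hist1h2ap stood at 166 CPM in RSPO3-OE, against 456 CPM in Ctrl, a log2 ratio of -1.46 (-1.49 to -1.43). Hist2h2ac, from the cluster on chromosome 3, stood at 38.3 CPM (RSPO3-OE) and 70.6 CPM (Ctrl), and Hist2h2aa1 at 6.92 CPM (RSPO3-OE) and 24.1 CPM (Ctrl). Hist1h2ab stood at 19.5 CPM (RSPO3-OE) and 33.2 CPM (Ctrl). All 14 H2A genes with enough UMIs had ratios below 0, as had 7550 of 12455 genes over all. The lowest ratios among members with at least 100 UMIs were those of Hist1h4n, at 0.462 CPM (RSPO3-OE) and 2.34 CPM (Ctrl), and Hist1h2br, at 1.56 CPM (RSPO3-OE) and 6.73 CPM (Ctrl), log2 ratios of -2.34 and -2.11. Hist1h2bc was nearly level, with 71.9 CPM in RSPO3-OE, against 64.8 CPM in Ctrl, a log2 ratio of 0.15 (0.09 to 0.21). The H4 genes Hist1h4d and Hist1h4i and the H3 gene Hist1h3c had small differences, with log2 ratios of -0.36, -0.47 and -0.33. Other H3 and H4 genes were lower, Hist1h3e at 17.6 CPM (RSPO3-OE) and 32.5 CPM (Ctrl), Hist1h3f at 7.05 CPM (RSPO3-OE) and 14.8 CPM (Ctrl) and Hist1h4h at 8.04 CPM (RSPO3-OE) and 14.6 CPM (Ctrl). Among H2B genes Hist1h2bj stood at 15.4 CPM (RSPO3-OE) and 33.8 CPM (Ctrl) and Hist2h2bb at 11.4 CPM (RSPO3-OE) and 18.6 CPM (Ctrl). By type, 3 of 5 H1, 11 of 14 H2A, 13 of 15 H2B, 9 of 12 H3 and 10 of 12 H4 genes were at least 1.5-fold lower. Of the 4 genes with reported polyadenylated transcripts 2 were, Hist2h2be and Hist1h2ac, at 0.700 CPM (RSPO3-OE) and 2.32 CPM (Ctrl) and at 9.69 CPM (RSPO3-OE) and 19.2 CPM (Ctrl).

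**Figure D3:**
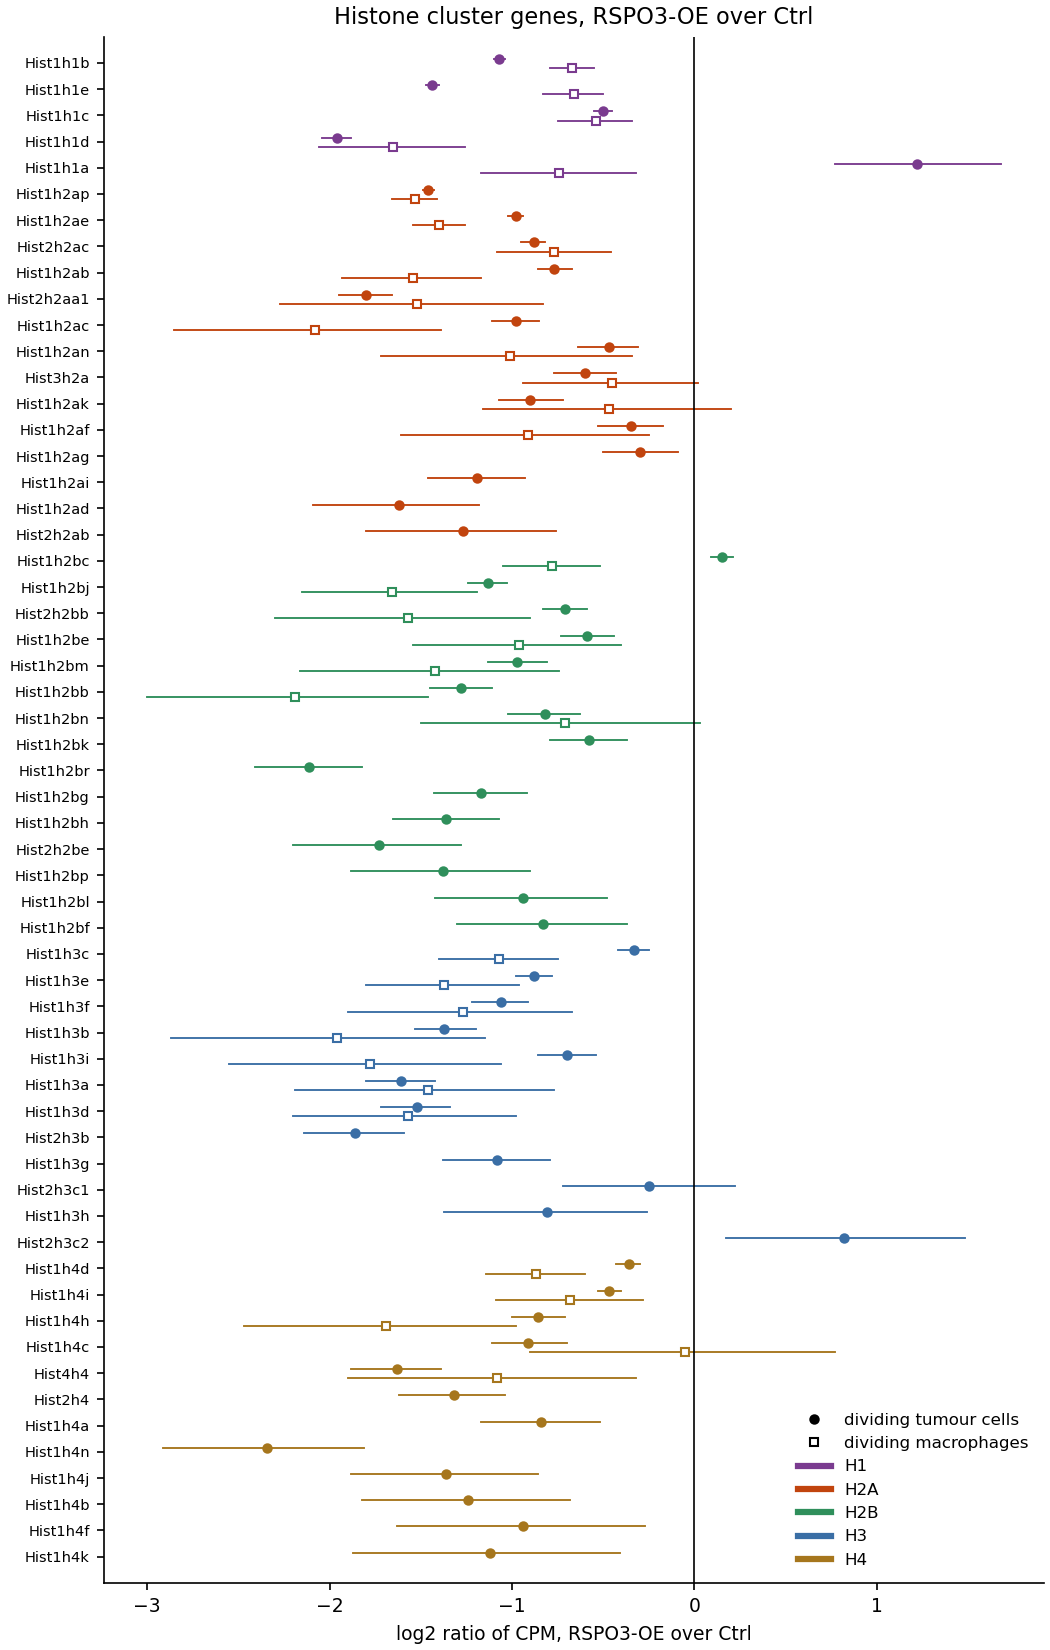
Log2 ratio of CPM, RSPO3-OE over Ctrl, of 58 histone cluster genes in dividing tumour cells (filled circles) and of the 34 of them with enough UMIs in dividing macrophages (open squares), with 95% counting intervals, grouped and coloured by type and ordered by UMIs. Most points lie left of 0, and Hist1h1a, Hist1h2bc and Hist2h3c2 lie right of it in tumour cells.

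Cell by cell, the median dividing tumour cell had 614 CPM of histone UMIs in RSPO3-OE and 1799 CPM in Ctrl. The share of cells above 5000 CPM was 1.63% in RSPO3-OE and 15.6% in Ctrl. With every cell thinned to 2000 UMIs, 65.6% of RSPO3-OE and 83.3% of Ctrl dividing tumour cells had a histone UMI (98.4% of RSPO3-OE and 99.8% of Ctrl before thinning). Non-dividing macrophages, thinned likewise, had one in 27.6% of RSPO3-OE and 43.3% of Ctrl cells. The median UMIs of dividing tumour cells were 32508 in RSPO3-OE and 28901 in Ctrl.

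Non-dividing tumour cells also had a lower level in RSPO3-OE, with 254 CPM in RSPO3-OE, against 553 CPM in Ctrl, a log2 ratio of -1.12 (-1.16 to -1.09). Of 35 genes, 32 were at least 1.5-fold lower, against 13.7% of all genes. The median log2 ratio was -2.04 over the 35 genes and -0.10 over all genes. Among the lowest ratios were those of 3 linker histones. Hist1h1d stood at 1.92 CPM in RSPO3-OE, against 19.0 CPM in Ctrl, Hist1h1b at 2.72 CPM (RSPO3-OE) and 24.0 CPM (Ctrl), and Hist1h1e at 11.3 CPM (RSPO3-OE) and 95.1 CPM (Ctrl), log2 ratios of -3.31, -3.14 and -3.07. Hist2h2aa1, an H2A gene, stood at 0.680 CPM (RSPO3-OE) and 6.27 CPM (Ctrl), a log2 ratio of -3.20. Hist1h1c stood at 88.3 CPM (RSPO3-OE) and 151 CPM (Ctrl), a log2 ratio of -0.78. Hist1h2bc stood at 95.0 CPM (RSPO3-OE) and 100 CPM (Ctrl), and with Hist3h2a and Hist2h3c1 it made up the 3 genes that were not 1.5-fold lower. The sum over H2B was 101 CPM (RSPO3-OE) and 122 CPM (Ctrl), but 5.90 CPM (RSPO3-OE) and 21.3 CPM (Ctrl) without Hist1h2bc. The cell cycle lists were also lower in non-dividing RSPO3-OE tumour cells. DNA replication genes summed to 637 CPM in RSPO3-OE, against 805 CPM in Ctrl, a log2 ratio of -0.34, and 6 of 28 were at least 1.5-fold lower, Dtl (-1.70) and Mcm7 (-0.92) among them. Mitosis genes summed to 139 CPM in RSPO3-OE, against 162 CPM in Ctrl, a log2 ratio of -0.21, with 3 of 22 lower. Over all genes 13.7% were lower by this rule, and the mitosis count does not exceed that share. The part of both lists in the result was not tested, and the bins described next are a description only.

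In every bin of the cell cycle lists the RSPO3-OE level was below the Ctrl level. Dividing tumour cells were put into 4 bins at the pooled quartiles of 27 DNA replication genes (the list of 28 without Slbp, which acts on histone mRNA) and, separately, of 22 mitosis genes, in CPM of the cell. Over replication bins 1 to 4 the histone level was 961, 1236, 1383 and 967 CPM in RSPO3-OE and 1875, 2610, 2513 and 2148 CPM in Ctrl. Over mitosis bins 1 to 4 it was 305, 1497, 1462 and 1116 CPM in RSPO3-OE and 787, 2850, 2976 and 2648 CPM in Ctrl. The log2 ratios ran from -0.86 to -1.15 over replication bins and from -0.93 to -1.37 over mitosis bins, and from -0.56 to -1.14 where the cells were split at the medians of both lists. The top replication bin held 21.7% of RSPO3-OE and 28.1% of Ctrl cells. Cells above both medians had the highest histone level of that split, 1991 CPM (RSPO3-OE) and 3548 CPM (Ctrl). They were 9.36% of RSPO3-OE and 14.7% of Ctrl cells. Cells below both medians, where the log2 ratio was -0.56, were 14.6% of RSPO3-OE and 9.69% of Ctrl cells. Of the cells, 30.2% lay within 10% of a replication limit and 20.6% within 10% of a mitosis limit, so the bins are ranges and not cell types. The histone level did not rise steadily from bin 1 to bin 4, so cells of the same bin need not be in the same phase. The part of cell cycle phase in the difference was not tested.

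**Figure D4:**
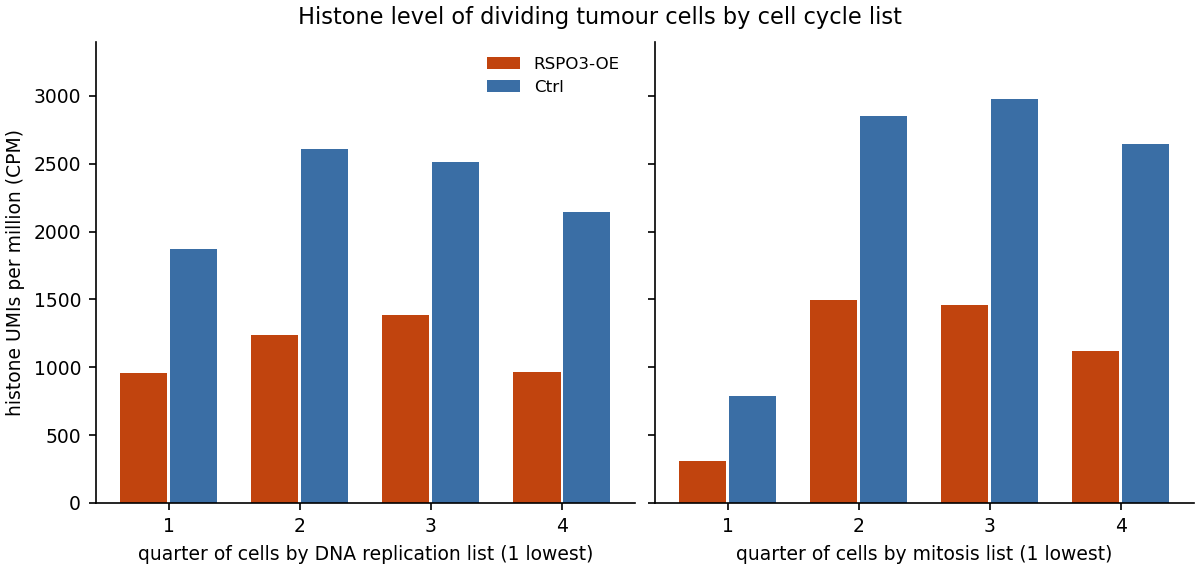
Histone CPM of dividing tumour cells in 4 bins of the DNA replication list (left) and the mitosis list (right), with bin 1 lowest and RSPO3-OE left of Ctrl. The Ctrl bar is the higher in all 8 pairs, and the lowest mitosis bin has the lowest bars in both libraries.

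In non-dividing tumour cells the log2 ratios over 4 replication bins ran from -0.90 to -1.38. The top bin held 22.6% of RSPO3-OE and 27.4% of Ctrl cells, with 1458 CPM (RSPO3-OE) and 1774 CPM (Ctrl) of the replication list. Its histone level was the lowest of the 4 bins, 191 CPM (RSPO3-OE) and 499 CPM (Ctrl). The name non-dividing therefore means only under 3 UMIs of Mki67 and Top2a. Non-dividing cells were not binned by the mitosis list, since too many had none of its UMIs. Within the dividing RSPO3-OE tumour cells, the 229 cells with at least 10 Rspo3 UMIs had 1502 CPM of histone UMIs, the 388 cells with 1 to 9 had 1144 CPM and the 1595 cells with none had 1073 CPM. The median UMIs of the 3 groups of cells were 35109, 32954 and 32115. The same split of non-dividing RSPO3-OE tumour cells gave 258 CPM (239 to 279) in 118 cells, 282 CPM (266 to 299) in 196 cells and 250 CPM (245 to 256) in 1676 cells, with no such order.

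Macrophages, which come from the host and not from the MC38 line, also had a lower histone level in RSPO3-OE. Dividing macrophages had 1244 CPM in RSPO3-OE, against 2667 CPM in Ctrl, a log2 ratio of -1.10 (-1.15 to -1.05). Of 35 genes with enough UMIs, 31 were at least 1.5-fold lower in RSPO3-OE, against 4.16% of all genes. The median log2 ratio was -1.08 over the 35 genes and 0.04 over all genes. The log2 ratios were -0.71 for H1, -1.39 for H2A, -1.21 for H2B, -1.38 for H3 and -0.94 for H4. Hist1h2ap stood at 187 CPM in RSPO3-OE, against 541 CPM in Ctrl, and Hist1h2bb at 5.14 CPM (RSPO3-OE) and 23.5 CPM (Ctrl). Hist1h2ac stood at 5.71 CPM (RSPO3-OE) and 24.2 CPM (Ctrl), and Hist1h2bb and Hist1h2ac had the lowest log2 ratios among members with at least 100 UMIs, -2.19 and -2.08. Hist1h2bc stood at 49.7 CPM (RSPO3-OE) and 85.3 CPM (Ctrl) here. Hist1h1a, at 20.3 CPM (RSPO3-OE) and 33.8 CPM (Ctrl), was lower, with a log2 ratio of -0.74 (-1.17 to -0.32). Hist1h1a in dividing macrophages was above its level in dividing tumour cells in both libraries.

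The mitosis list was also lower, with 2602 CPM in RSPO3-OE, against 3387 CPM in Ctrl dividing macrophages. Above its median lay 41.7% of RSPO3-OE and 56.9% of Ctrl cells. Below and above that median the histone log2 ratios were -1.14 and -0.86. The DNA replication list stood at 2531 CPM in RSPO3-OE, against 2329 CPM in Ctrl. Below and above the median of that list without Slbp the histone log2 ratios were -1.05 and -1.16. The part of both lists in the difference was not tested. Leaving out 13 RSPO3-OE and 9 Ctrl cells with an Hmga2 UMI gave a histone log2 ratio of -1.04 (-1.09 to -0.99).

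Dividing macrophages were above non-dividing ones in both libraries, 1244 CPM (dividing) and 185 CPM (non-dividing) in RSPO3-OE and 2667 CPM (dividing) and 334 CPM (non-dividing) in Ctrl, log2 ratios of 2.75 (2.67 to 2.82) and 3.00 (2.95 to 3.05). In RSPO3-OE 15 of 18 genes and in Ctrl 34 of 36 genes were at least 1.5-fold higher in dividing macrophages, against 13.7% and 13.9% of all genes. Hist3h2a was the exception that stood lower in dividing RSPO3-OE macrophages by over 1.5-fold, with 16.9 CPM (dividing) and 30.8 CPM (non-dividing). In Ctrl it was 23.1 CPM (dividing) and 27.2 CPM (non-dividing). In non-dividing macrophages 16 of 22 genes were at least 1.5-fold lower in RSPO3-OE than in Ctrl, against 4.55% of all genes, and the sum had a log2 ratio of -0.85 (-0.93 to -0.77). These values include members at the level of free tumour RNA, described next.

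Free tumour RNA in macrophages was read from tumour genes, which stood in non-dividing macrophages at 1.56 to 3.40% of their tumour level in RSPO3-OE (Krt8, Cald1, Cav1, Tpm2 and Hmga2) and at 1.63 to 4.47% in Ctrl. Hist1h2ap, at 2.95% (RSPO3-OE) and 4.36% (Ctrl), and Hist1h1b, at 2.26% (RSPO3-OE) and 2.12% (Ctrl), lay in that range and are read as background there. Hist1h1c, at 43.9% (RSPO3-OE) and 61.5% (Ctrl), and Hist1h2bc, at 56.4% (RSPO3-OE) and 82.7% (Ctrl), lay above it. So did Hist1h1e, at 9.42% (RSPO3-OE) and 10.7% (Ctrl). The other 20 of the 22 counted genes lay above the highest of the 5 tumour genes in both libraries. The differences of Hist1h2ap and Hist1h1b between the libraries are not read in non-dividing macrophages, and without them 14 of 20 genes were at least 1.5-fold lower. The sum over the 49 members above that level in both libraries was 178 CPM in RSPO3-OE, against 308 CPM in Ctrl, a log2 ratio of -0.79 (-0.87 to -0.71). These 49 were picked with the values known. Erythroid genes summed to 0.180 CPM in RSPO3-OE, against 370 CPM in Ctrl non-dividing macrophages, and their part in the result was not tested.

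Dividing T cells had the highest histone level of the 3 classes in both libraries. The direction of the difference between libraries depended on which cells were counted and on how they were weighted. Over 95 RSPO3-OE and 52 Ctrl cells the sum was 3180 CPM (RSPO3-OE) and 2897 CPM (Ctrl), a log2 ratio of 0.13 (0.06 to 0.20). The mean of each cell's own CPM over the same cells gave a log2 ratio of -0.15. Of 23 genes 0 were at least 1.5-fold lower and 4 at least 1.5-fold higher in RSPO3-OE, against 9.50% and 10.1% of all genes. The 4 were Hist1h3c, Hist1h4d, Hist1h4h and Hist1h2bn. Hist1h3c stood at 135 CPM in RSPO3-OE, against 59.7 CPM in Ctrl, and Hist1h2ap at 429 CPM (RSPO3-OE) and 596 CPM (Ctrl).

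UMIs of tumour markers were found in these T cells. The 6 tumour markers summed to 336 CPM in RSPO3-OE, against 962 CPM in Ctrl dividing T cells, none of them at 0. In non-dividing T cells they summed to 35.8 CPM (RSPO3-OE) and 222 CPM (Ctrl). Krt8 stood at 117 CPM in RSPO3-OE, against 259 CPM in Ctrl dividing T cells, the second being 298% of its level in Ctrl tumour cells. Without the 8 RSPO3-OE and 11 Ctrl cells that had an Hmga2 UMI, Krt8 was at 4.53 CPM (RSPO3-OE) and 0 CPM (Ctrl) and the histone sum at 3306 CPM (RSPO3-OE) and 4185 CPM (Ctrl), a log2 ratio of -0.34 (-0.42 to -0.26). This choice was made after the data had been seen. Whether the cells left out were doublets of a T cell and a tumour cell that the doublet caller had not marked was not tested, and the sum over all dividing T cells includes them. In the cells kept the log2 ratios were -0.19 for H1, -0.69 for H2A, -0.33 for H2B, -0.17 for H3 and 0.27 for H4, the intervals for H3 and H4 including 0. Hist1h2ap stood at 452 CPM in RSPO3-OE, against 840 CPM in Ctrl there, and Hist1h3c at 152 CPM (RSPO3-OE) and 90.2 CPM (Ctrl).

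**Figure D5:**
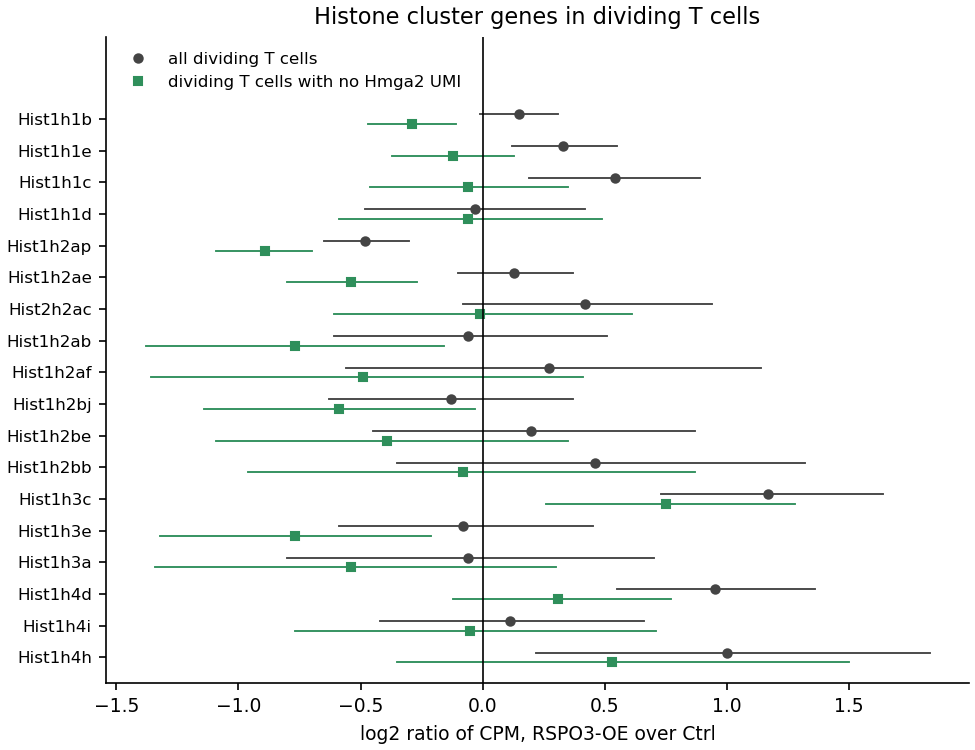
Log2 ratio of CPM, RSPO3-OE over Ctrl, in dividing T cells for the 18 histone cluster genes with at least 50 UMIs in both selections, with 95% counting intervals. Circles are all dividing T cells and squares those with no Hmga2 UMI, and every square lies left of its circle.

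Split at the median of the DNA replication list, all dividing T cells had log2 ratios of 0.77 in the lower and -0.44 in the upper part. The 27 genes in which under 50% of the sequence windows are unique had -0.25, and the other 40 had 0.27. Dividing T cells stood above non-dividing ones, with 3180 CPM (dividing) and 269 CPM (non-dividing) in RSPO3-OE and 2897 CPM (dividing) and 478 CPM (non-dividing) in Ctrl, log2 ratios of 3.56 and 2.60, or 3.60 and 3.1 without cells that had an Hmga2 UMI. At least 1.5-fold higher were 17 of 17 genes in RSPO3-OE and 12 of 13 in Ctrl, against 18.7% and 21.5% of all genes. Hist1h1c, the gene that was not higher in Ctrl, stood there at 112 CPM (dividing) and 108 CPM (non-dividing). In non-dividing T cells the sum was 269 CPM in RSPO3-OE, against 478 CPM in Ctrl, a log2 ratio of -0.83, with 4 genes above 50 UMIs. Hist1h1e stood at 47.0 CPM (RSPO3-OE) and 113 CPM (Ctrl) and Hist1h1c at 48.5 CPM (RSPO3-OE) and 108 CPM (Ctrl) in them.

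Other genes of the histone pathway were compared in the same cells. Of 13 genes of histone 3′ end processing 1 was at least 1.5-fold lower and 0 higher in dividing RSPO3-OE tumour cells, against 13.9% lower and 8.90% higher over all genes, with a median log2 ratio of -0.09. That gene was Fip1l1, of the cleavage and polyadenylation complex, at 121 CPM in RSPO3-OE, against 193 CPM in Ctrl. Slbp, which binds the stem-loop, stood at 112 CPM (RSPO3-OE) and 141 CPM (Ctrl), a log2 ratio of -0.33 (-0.37 to -0.29). In dividing macrophages Slbp was higher in RSPO3-OE, at 121 CPM against 93.4 CPM in Ctrl, a log2 ratio of 0.37 (0.17 to 0.57). The Slbp log2 ratio was 0.34 (0.16 to 0.52) in non-dividing macrophages and 0.52 (0.24 to 0.81) in dividing T cells. In dividing tumour cells Lsm11, of the U7 particle, stood at 20.8 CPM (RSPO3-OE) and 17.1 CPM (Ctrl). Of 9 genes of the histone locus body and its transcription 0 passed 1.5-fold, with a median log2 ratio of -0.05, and the octamer factor Pou2f1 stood at 15.7 CPM (RSPO3-OE) and 19.6 CPM (Ctrl).

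By the same rule, under which 13.9% of all genes were lower, 2 of 18 histone chaperone genes were lower, Hira, a chaperone of replication-independent H3, at 11.1 CPM in RSPO3-OE, against 17.9 CPM in Ctrl, and Hjurp, which places the centromere histone, at 72.6 CPM (RSPO3-OE) and 111 CPM (Ctrl). Of 11 histone variant genes made outside replication 10 had enough UMIs and 0 passed 1.5-fold, Cenpa standing at 204 CPM (RSPO3-OE) and 304 CPM (Ctrl) and H2afz at 1663 CPM (RSPO3-OE) and 1409 CPM (Ctrl). Of 28 DNA replication genes 2 were lower, Dtl at 26.4 CPM (RSPO3-OE) and 56.1 CPM (Ctrl) and Mcm7 at 84.6 CPM (RSPO3-OE) and 133 CPM (Ctrl), and the sum of the list had a log2 ratio of -0.18. Neither count exceeds the share over all genes. Of 22 mitosis genes 0 passed, and their sum was 3591 CPM in RSPO3-OE, against 3555 CPM in Ctrl.

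Loci of ribosomal RNA, which normally has no poly(A) tail, did not all go one way. The ribosomal RNA locus Gm42418 stood at 815 CPM in RSPO3-OE, against 1185 CPM in Ctrl dividing tumour cells, and Gm26917 at 28.5 CPM (RSPO3-OE) and 94.5 CPM (Ctrl), while AY036118 stood at 26.8 CPM (RSPO3-OE) and 27.2 CPM (Ctrl). Of these 3 loci 1, Gm26917, was at least 1.5-fold lower. In dividing macrophages Gm42418 stood at 1519 CPM (RSPO3-OE) and 839 CPM (Ctrl), the other way from the histones, and AY036118 at 49.1 CPM (RSPO3-OE) and 40.0 CPM (Ctrl). Gm26917 was below Ctrl there too, at 74.5 CPM (RSPO3-OE) and 109 CPM (Ctrl), a log2 ratio of -0.55 (-0.78 to -0.34). Its log2 ratios of RSPO3-OE over Ctrl were -1.73 in dividing and -1.68 in non-dividing tumour cells and -0.99 in non-dividing macrophages. In T cells they were -0.31 (-0.63 to 0.01) in dividing and -0.69 in non-dividing cells. The sum of the 3 loci had log2 ratios of -0.59 in dividing and -0.51 in non-dividing tumour cells. For macrophages this sum had 0.73 (dividing) and 0.36 (non-dividing), and for T cells 0.07 (dividing) and -0.11 (non-dividing).

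Copies of histone genes are alike, and the labels do not say how reads shared between copies were counted. In 27 members under 50% of the 90-base windows of their transcripts were unique among all annotated transcripts, and these 27 held 24.0% of histone UMIs. Among them are Hist1h2ap (7.63%) and genes named above for extreme ratios, Hist1h4n (18.8%), Hist1h2br (13.1%), Hist2h2aa1 (11.5%) and Hist1h2af (33.5%). Values of such genes are uncertain individually. Their sum in dividing tumour cells was 261 CPM in RSPO3-OE, against 640 CPM in Ctrl, a log2 ratio of -1.29, and that of the other 40 was 872 CPM (RSPO3-OE) and 1676 CPM (Ctrl), a log2 ratio of -0.94. Hist1h1b, with 100% unique windows, had -1.07. The Hist1h2be model overlaps that of Hist1h1e. The 3 genes with the most UMIs held 45.2% and the first 10 held 79.7% of histone UMIs.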

How the data were processed

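Single-cell suspensions of MC38-RSPO3-OE and MC38-Ctrl tumour tissue, 1 library each, were sequenced with a 3′ kit of 10x Genomics, per the labels' protocols. The authors deposited a matrix of UMI counts, not normalized, for each library. Cell Ranger 3.0.1 and mm10 are named in the labels' protocols, and version 3.1.0 in the matrix header. Barcodes with under 200 genes or a mitochondrial share over 20% were dropped (150 of RSPO3-OE, 311 of Ctrl), as were doublets marked by Scrublet in scanpy 1.11.5 at an expected rate of 0.05 (171, 2.39%, and 95, 1.36%). Cells that matched more than 1 class were left out of all classes.

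UMIs were summed per library, class and state, and divided by the total to give CPM. Levels have exact Poisson and log2 ratios exact binomial 95% intervals. A count of 0 was set to 3 for a bound. A gene counted as higher or lower at 1.5-fold with at least 50 UMIs in both sums together. Named were, per type, the 3 members with the most UMIs and, per comparison, the 2 highest and 2 lowest with at least 100 UMIs, and likewise up to 2 and 2 genes per list. Other genes named as exceptions were chosen after their values were seen. The members, classes and 8 lists were chosen with earlier results of these data known. The ratios and intervals were tested on simulated sums that vary by counting error only. The spread of histone UMIs between cells was not simulated. Free RNA was not removed. Scripts ran in Python 3.11.15 with scipy 1.17.1, numpy 2.4.6, matplotlib 3.10.9 and pandas 2.3.3.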

Additional observations from a re-analysis of the deposited data

Results flagged for a closer look

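In dividing cells, histone differences between RSPO3-OE and Ctrl had opposite signs in different cell classes, and the difference between classes was not tested. In non-dividing cells the sum was lower in RSPO3-OE in each class. The log2 ratios there were -1.12 in tumour cells, -0.85 in macrophages and -0.83 (-1.01 to -0.65) in T cells. The sum of all members had a log2 ratio of -1.03 in dividing tumour cells and -1.10 in dividing macrophages, but 0.13 over all dividing T cells. The sign in T cells turned when cells with an Hmga2 UMI were left out. It also turned over the same cells, to -0.15 with the mean of each cell's own CPM and to -0.09 with cells thinned to 2000 UMIs.

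Against the same T cells, Hist1h1c had -0.50 in tumour cells, -0.54 in macrophages and 0.54 in T cells, and Hist1h1e had -1.44, -0.66 and 0.33. Hist1h3c had -0.33, -1.07 and 1.17, and Hist1h4d -0.36, -0.87 and 0.95. Without the T cells that had an Hmga2 UMI, Hist1h1c had -0.06, Hist1h1e -0.12, Hist1h3c 0.75 and Hist1h4d 0.31.

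Between tumour cells and macrophages, Hist1h1a had 1.22 and -0.74, and Hist1h2bc 0.15 and -0.78.

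Cells that met none of the 3 class rules were used in no comparison and also held histone UMIs. Dividing ones had 1218 CPM in RSPO3-OE (161 cells) and 2318 CPM in Ctrl (266 cells). Non-dividing ones had 260 CPM in RSPO3-OE (1008 cells) and 677 CPM in Ctrl (934 cells).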

How the results depend on the processing

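Of 115 alternative values of 14 results, 63 stayed within the counting interval or, for counts, within 1.5 times, 47 moved outside it and 5 changed sign. All 5 sign changes concern dividing T cells, RSPO3-OE over Ctrl, whose log2 ratio was -0.15 with the mean of each cell's own CPM, -0.09 with cells thinned to 2000 UMIs, -0.02 with cells called dividing at 200 CPM of Mki67 and Top2a, -0.17 over all barcodes and -0.34 over cells with no Hmga2 UMI, the last chosen after the data had been seen. It was 0.02 with cells of more than 1 class kept and 0.26 without Hist1h2ap. The causes were not tested.

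For RSPO3-OE over Ctrl, dividing tumour cells moved to -1.28 with each cell's own CPM, -1.25 thinned, -0.94 with median-of-ratios scaling and -0.94 without Hist1h2ap. Non-dividing tumour cells moved to -1.32, -1.33 and -1.03 under the first 3 of these, -1.07 with the 200 CPM limit and -1.16 with at least 3 Hmga2 UMIs. Dividing macrophages moved to -1.18, -1.21, -1.16 and -1.01 under the same 4, -0.97 with 6 UMIs of Mki67 and Top2a, -1.03 over all barcodes and -1.04 with no Hmga2 UMI. At a 2-fold limit 27 of 58 members were lower in dividing tumour cells, against 5.08% of all genes.

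For dividing over non-dividing cells, RSPO3-OE tumour cells moved to 2.08 with each cell's own CPM, 2.08 thinned, 2.20 at 200 CPM, 2.21 at 6 UMIs, 2.28 at 3 Hmga2 UMIs and 1.94 without Hist1h2ap, and Ctrl tumour cells to 2.0 thinned and, under the last 4, to 2.17, 2.11, 2.15 and 1.79. RSPO3-OE macrophages moved to 2.62, 2.63, 2.82, 2.98 and, over all barcodes, 2.65, and without Hist1h2ap 2.54. Ctrl macrophages moved to 2.92 with each cell's own CPM, 2.90 thinned, 2.90 with median-of-ratios scaling, 2.85 over all barcodes and 2.73 without Hist1h2ap. RSPO3-OE T cells moved to 3.24 at 200 CPM, 3.29 over all barcodes and 3.39 without Hist1h2ap, and Ctrl T cells to 2.75 with each cell's own CPM, 3.1 with no Hmga2 UMI and 2.30 without Hist1h2ap.

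No paired analysis was possible because each group has 1 library. With 1 library per group, no value here has a replicate error, and low-count members such as Hist1h1a rest on few UMIs.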
